A study of Mus musculus with 12 samples.

Results

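The general macrophage markers described here are 10 genes, Cd68, Adgre1, Csf1r, Laptm5, Msr1, Cd14, Tyrobp, Fcer1g, Lyz2 and Mertk. They were taken from a table of read counts by mapping its Ensembl identifiers to these mouse symbols. All 10 were found among 55357 rows, and all 10 were among the 15804 genes that passed the filter on low counts and were tested. The genes were chosen by name as markers, with earlier results of these data known.

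Hearts of male mice were profiled by mRNA sequencing after sham surgery or transverse aortic constriction (TAC), an operation that narrows the aorta and loads the left ventricle with pressure. The mice were wild type on C57BL/6J (WT) or Cd163-/- on the same background (KO), and were 8 weeks old at surgery. Cd163 is the haemoglobin scavenger receptor of tissue macrophages, and the comparison asks what its loss changes in the heart with and without pressure load. Each genotype had 3 sham and 3 TAC libraries, which gives 4 groups named WT sham, KO sham, WT TAC and KO TAC. All animals had the chest opened, and in the TAC groups the arch was tied against a 27-gauge needle that was then withdrawn. RNA came from heart tissue, with no sorting of cells, so every value is an average over all cell types of the sample. The labels do not name the animal behind each library, nor the time from surgery to collection, so p-values speak of the spread among these libraries, which may be technical.

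Macrophages are resident in the healthy heart and are joined by cells from blood monocytes after injury or load. They depend on signalling through the receptor encoded by Csf1r, take up debris, modified lipoproteins and dying cells through receptors such as those encoded by Msr1 and Mertk, and degrade the cargo in lysosomes, where the products of Cd68, Laptm5 and Lyz2 act. Many of their activating receptors have no signalling tail of their own and borrow the adaptors encoded by Tyrobp and Fcer1g, while Cd14 hands lipopolysaccharide to Toll-like receptor 4 and Adgre1 encodes the F4/80 antigen by which mouse macrophages are commonly identified.

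Sequences are shown for the pair of adaptors, which share a signalling motif, and for Cd68 and Laptm5, the 2 members that passed the test between genotypes and did so in opposite directions. The adaptor motif, called ITAM, carries 2 tyrosines that are phosphorylated when a partner receptor is engaged. In the lines that follow it spans 45 coding bases in each gene, read from GENCODE M21 transcripts of GRCm38, with the 2 tyrosine codons in capitals. The Fcer1g stretch lies in chr1:171229889-171230072 on the minus strand and the Tyrobp stretch in chr7:30415670-30417382 on the plus strand, each across an exon junction.
Fcer1g: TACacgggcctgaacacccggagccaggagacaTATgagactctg
Tyrobp: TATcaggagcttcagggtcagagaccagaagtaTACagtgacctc
The pair agreed at 19 of 45 bases, and in each gene 10 codons separated the tyrosines.

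Upstream sequence was matched for 5 of the 10 members (Cd68, Laptm5, Fcer1g, Lyz2 and Mertk) in RefSeq's GRCm38.p6 table, over the 250 bases before the start of each gene. GAGGAA, the core letters bound by the macrophage factor Spi1 (PU.1), was sought on both strands and is in capitals here. It was in the windows of Cd68, 219 bases upstream on the plus strand of the window, and Laptm5, 32 bases upstream on the other strand, where it reads TTCCTC. The longer GAGGAAGT, which contains GAGGAA, was in none of the 5 windows. Of all 32851 promoter windows of this length 23.3% held GAGGAA and 2.44% held GAGGAAGT. Cd68 is shown over chr11:69666171-69666420 on the minus strand. Laptm5 is shown over 30 bases around the match, chr4:130913266-130913295 on the plus strand, since GENCODE M21 starts that gene further upstream than RefSeq. The match is upstream by RefSeq only, and by GENCODE M21 it lies inside the gene.
Cd68: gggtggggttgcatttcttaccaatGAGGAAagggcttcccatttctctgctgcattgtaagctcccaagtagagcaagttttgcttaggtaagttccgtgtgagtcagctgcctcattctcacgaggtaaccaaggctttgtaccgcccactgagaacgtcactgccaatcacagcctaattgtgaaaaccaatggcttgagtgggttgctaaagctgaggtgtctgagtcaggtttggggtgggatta
Laptm5: gcagcctgtggcTTCCTCttttttgttctg
Binding of Spi1 was not measured, and its part in the differences of Cd68 and Laptm5 between genotypes was not tested. Spi1 itself had 4.04 ± 1.42 CPM in WT TAC and 3.42 ± 0.274 in KO TAC (SD, n = 3), with a log2 difference of -0.24 ± 0.26 (SE, adjusted p = 0.504 in edgeR).

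Libraries held 14150109 to 22602225 counts. Cd163, the targeted gene, stood at 14 to 16.1 CPM (read counts scaled to the size of the library) in WT sham and 13.7 to 29.5 in WT TAC, against 3.14 to 4.60 in KO sham and 3.47 to 4.07 in KO TAC, so each KO library lay below each WT library and none was at 0. KO sham replicate 1 stands apart from its group: transcripts of the mitochondrial genome made up 51.0% of its counts, where its group mates had 30.5% and 31.6% and KO TAC had 44.0 to 51.3%. It had a summed 29300 CPM of 11 cardiomyocyte genes, and that sum was 54700 and 58200 in its group mates, 37300 to 40100 in KO TAC, 59800 to 62400 in WT TAC and 63000 to 66500 in WT sham. Mitochondrial share and cardiomyocyte level thus differed between genotypes after TAC beside every result below, and their part in those results was not tested. The files do not show whether its label, its tissue or its RNA sets it apart, and every KO sham level and TAC effect in KO rests in part on it. Results are given with all 12 libraries and again with 11, leaving this one out. WT TAC replicate 1 had the lowest mitochondrial share of all (24.8%). Values of Mertk without it are given with that gene.

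CPM here are scaled by the trimmed mean of M-values (TMM), and log2 fold changes carry their SE from edgeR's quasi-likelihood test, with p-values adjusted over all genes tested and called under 0.05. With 12 libraries, 2 of the 10 members were called between genotypes after TAC, Laptm5 higher and Cd68 lower in KO, where 20.4% of all genes tested were called, 8.63% higher and 11.7% lower. No member was called for TAC in WT (0.0316% of genes called, 0.0253% higher), for TAC in KO (0.0%), between genotypes after sham (0.00633%) or for the interaction (0.0%), in which the TAC effect of WT is subtracted from that of KO. At an unadjusted p under 0.05 the members numbered 6, 2, 2 and 3 of 10 in those 4 tests, beside 16.2%, 30.9%, 13.5% and 9.19% of all genes, and 3 between genotypes after TAC, beside 40.8%. DESeq2 called 2, 1, 0 and 0 members in them, beside 3.21%, 12.0%, 1.39% and 0.613% of genes, and 3 between genotypes after TAC, beside 30.2%. With 11 libraries edgeR called 2 members for TAC in WT, both higher (6.53% of genes called, 3.4% higher). For TAC in KO it called 3, of which 2 were higher and 1 lower (47.6% of genes, 22.4% higher and 25.2% lower). It called 0 between genotypes after sham (0.241% of genes, 0.0803% higher) and 0 for the interaction (12.1%). Between genotypes after TAC it called 3, of which 2 were higher and 1 lower (40.7% of genes, 18.5% higher and 22.1% lower). In bulk tissue, fewer cells of a type and less RNA per cell cannot be told apart.

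**Figure D1:**
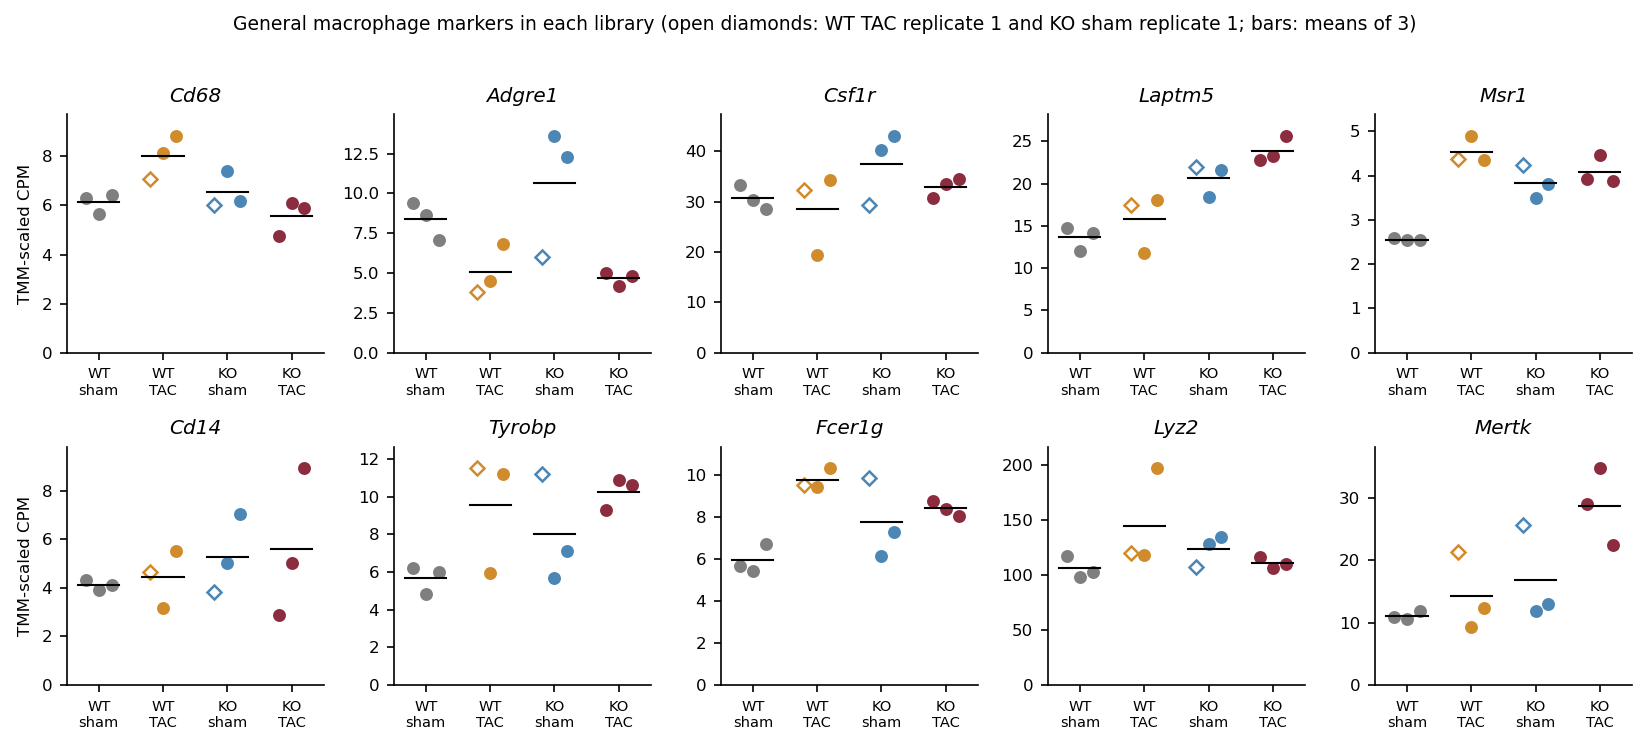
TMM-scaled CPM (y axis, from 0) of each of the 10 members in each of the 12 libraries, by group, with a bar at the mean of 3 and open diamonds for WT TAC replicate 1 and KO sham replicate 1. Laptm5 reached 22.8 to 25.6 in KO TAC against 11.8 to 18 in WT TAC, and Adgre1 was at 6.86 or less in every TAC library.

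Per kilobase of exon, Lyz2 was by far the most abundant member and Msr1 the least in all 4 groups. In WT sham hearts Lyz2, lysozyme, had 80.4 ± 7.27 CPM per kb (SD, n = 3), followed by Tyrobp at 8.51 ± 1.13 and Fcer1g at 6.78 ± 0.793, which overlapped. Csf1r (4.93 to 5.78 CPM per kb) and Cd68 (4.51 to 5.10) came next and overlapped. Laptm5 (3.16 to 3.90) lay above Adgre1 (2.20 to 2.91), Mertk (2.44 to 2.75) and Cd14 (2.25 to 2.51), which overlapped one another, and Msr1 closed the order at 0.403 ± 0.00505. Lyz2, Tyrobp and Fcer1g kept the top places by mean in every group. Mertk was the member whose place differed most, the eighth in WT sham and the fourth in KO TAC, where it had 6.62 ± 1.40 CPM per kb and overlapped Laptm5 (6.32 ± 0.396) and Csf1r (5.70 ± 0.339). Adgre1 was the seventh in WT sham and the ninth in both TAC groups.

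**Figure D2:**
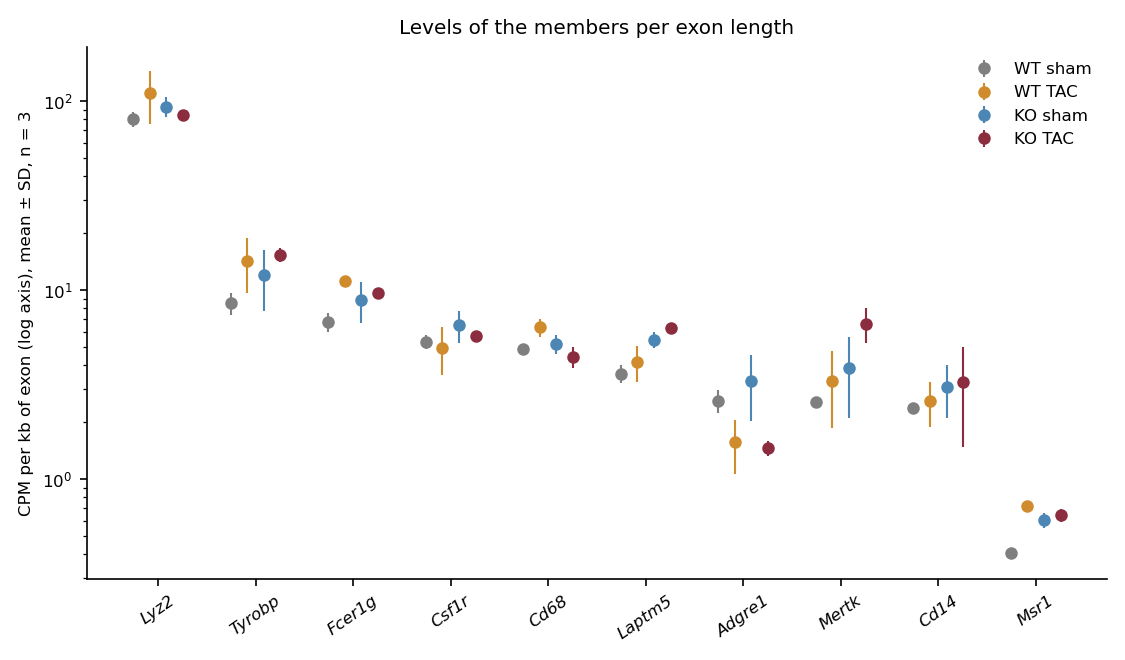
Mean CPM per kb of exon (log y axis) of each member in the 4 groups, with SD over 3 libraries, in the order of the WT sham means. Lyz2 is at 80.4 to 110 in the 4 groups and Msr1 at 0.403 to 0.716; Mertk is highest in KO TAC.

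Of the lineage receptors, Csf1r passed no edgeR test, and Adgre1 was low in both TAC groups. Csf1r, the receptor for CSF1 and interleukin-34 on which macrophage survival depends, had 33.4, 30.3 and 28.5 CPM in WT sham, 32.3, 19.4 and 34.2 in WT TAC, 29.4, 40.3 and 43.0 in KO sham and 30.8, 33.5 and 34.5 in KO TAC. All groups overlapped, with WT TAC replicate 3 the lowest library and the KO sham replicates 2 and 3 the highest; those 2 lay above every WT sham and KO TAC library. Its log2 fold changes were -0.10 ± 0.21 for TAC in WT, -0.19 ± 0.21 for TAC in KO, 0.29 ± 0.21 between genotypes after sham and 0.20 ± 0.21 after TAC (adjusted p 0.479 to 0.816). With 11 libraries the sham difference was 0.44 ± 0.19 (adjusted p = 0.486) and TAC in KO -0.34 ± 0.20 (adjusted p = 0.161), both without overlap. With 12 libraries limma-voom called both, at 0.39 (adjusted p = 0.0403) and -0.36 (adjusted p = 0.0271). The gene overlaps Hmgxb3 on the opposite strand over 873 bases, and whether counting used strand was not given in the sources used here.

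Adgre1, the F4/80 gene, had 9.42, 8.67 and 7.11 CPM in WT sham and 3.79, 4.52 and 6.86 in WT TAC. It had 6.01, 13.6 and 12.3 CPM in KO sham and 5.03, 4.22 and 4.85 in KO TAC. The TAC libraries lay below the sham libraries of the same genotype with no overlap, although WT TAC replicate 5 came close to the lowest WT sham library, and KO sham replicate 1 lay nearer the KO TAC libraries than its own group. The log2 fold change for TAC was -0.73 ± 0.30 in WT (adjusted p = 0.263). In KO it was -1.18 ± 0.30 (adjusted p = 0.103), so neither passed in that fit. With 12 libraries Adgre1 was called for TAC in KO by DESeq2, limma-voom and edgeR with no filter on low counts. Those fits called 12.0%, 63.0% and 2.14% of all genes. With 11 libraries Adgre1 fell by 1.46 ± 0.23 on the log2 scale in KO (adjusted p = 0.000478), a mean of 12.9 ± 0.907 CPM in the 2 remaining sham libraries against 4.70 ± 0.424 in KO TAC, while the value in WT was -0.74 ± 0.21 (adjusted p = 0.0516). Between genotypes after TAC its values overlapped (-0.10 ± 0.30, adjusted p = 0.822).

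Cd14, the lipopolysaccharide co-receptor, passed no test and varied most within KO TAC. It had 4.34, 3.90 and 4.13 CPM in WT sham, 4.67, 3.17 and 5.50 in WT TAC, 3.82, 5.01 and 7.03 in KO sham and 2.90, 5.01 and 8.92 in KO TAC. The KO TAC group alone spanned the whole range of the 12 libraries, and every group overlapped the others. The largest of its 4 log2 fold changes was 0.36 ± 0.36, between genotypes after sham (adjusted p = 0.610), and the same held with 11 libraries, where none passed.

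The adaptors Tyrobp and Fcer1g were both higher in most TAC libraries than in WT sham. Tyrobp, which encodes DAP12, had 6.19, 4.81 and 6.02 CPM in WT sham and 11.5, 5.97 and 11.2 in WT TAC. It had 11.2, 5.67 and 7.12 CPM in KO sham and 9.31, 10.9 and 10.6 in KO TAC. WT TAC replicate 3 lay within the sham range, and KO sham replicate 1 lay above every KO TAC library. The TAC effect was 0.75 ± 0.28 in WT (adjusted p = 0.241). For KO it was 0.37 ± 0.28 (adjusted p = 0.367). With 11 libraries Tyrobp rose in KO by 0.68 ± 0.25 (adjusted p = 0.0434), and in WT it stood at 0.75 ± 0.23 (adjusted p = 0.0624).

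Fcer1g, the common gamma chain of Fc receptors, had 5.66, 5.4 and 6.71 CPM in WT sham and 9.49, 9.41 and 10.3 in WT TAC. It had 9.83, 6.12 and 7.26 CPM in KO sham and 8.76, 8.37 and 8.06 in KO TAC. All WT TAC libraries lay above all WT sham libraries, and the KO TAC libraries lay between them. TAC in WT gave 0.72 ± 0.18 (1.64-fold, adjusted p = 0.144). TAC in KO gave 0.12 ± 0.18 (adjusted p = 0.645). Without KO sham replicate 1, which shares the estimate of spread but is in neither WT group, the WT value was again 0.72, with SE 0.14, and Fcer1g rose (adjusted p = 0.0196).

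Among the uptake receptors, Msr1 was low in WT sham alone and Mertk was high in KO TAC. Msr1, the class A scavenger receptor for modified lipoproteins, had 2.59, 2.54 and 2.54 CPM in WT sham, 4.38, 4.89 and 4.36 in WT TAC, 4.23, 3.49 and 3.80 in KO sham and 3.93, 4.46 and 3.87 in KO TAC. Each of the 9 other libraries lay above each WT sham library, and the other 3 groups lay close together. The log2 fold change was 0.83 ± 0.17 for TAC in WT (1.77-fold, adjusted p = 0.099) and 0.58 ± 0.17 between genotypes after sham (adjusted p = 0.265), against 0.09 ± 0.17 for TAC in KO (adjusted p = 0.723). With 11 libraries Msr1 rose with TAC in WT by 0.82 ± 0.17 (adjusted p = 0.0211), and the interaction was -0.67 ± 0.25 (adjusted p = 0.0971), which did not pass.

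Mertk, a receptor kinase that binds dying cells through Gas6 and protein S, had 10.9, 10.6 and 11.9 CPM in WT sham and 21.3, 9.25 and 12.4 in WT TAC. It had 25.6, 11.8 and 12.9 CPM in KO sham and 29.0, 34.7 and 22.5 in KO TAC. The KO TAC libraries were all above the WT TAC libraries, but WT TAC replicate 1 and KO sham replicate 1 lay far above the rest of their groups. Between genotypes after TAC the log2 fold change was 1.00 ± 0.33 (2.00-fold), just outside the threshold (adjusted p = 0.0517). With 11 libraries it was again 1.00, with SE 0.25, and Mertk was higher in KO (adjusted p = 0.00738). In that fit Mertk also rose with TAC in KO by 1.21 ± 0.28 (adjusted p = 0.00456), where 12 libraries gave 0.78 ± 0.33 (adjusted p = 0.140). Leaving out WT TAC replicate 1 alone, the difference between genotypes after TAC was 1.42 and passed (adjusted p = 0.0144), and TAC in WT turned from 0.37 to -0.04 (adjusted p = 0.985). Leaving out both libraries, the genotype difference was 1.41 (adjusted p = 2.11e-05).

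Of the lysosomal members, Cd68 was lower and Laptm5 higher in KO than in WT after TAC, and Lyz2 passed no edgeR test with 12 libraries. Cd68, a heavily glycosylated protein of late endosomes and lysosomes (ENSMUSG00000018774, chr11:69664213-69666153 in GRCm38), had 6.30, 5.67 and 6.41 CPM in WT sham and 7.08, 8.12 and 8.82 in WT TAC. It had 6.01, 7.40 and 6.18 CPM in KO sham and 4.76, 6.10 and 5.90 in KO TAC. Every WT TAC library was above every WT sham and every KO TAC library, while KO TAC overlapped KO sham. After TAC Cd68 was lower in KO by 1.43-fold, a log2 fold change of -0.52 ± 0.17 (adjusted p = 0.0485). The call was close to the threshold and was lost with DESeq2 size factors (adjusted p = 0.0503), with only the compared groups (0.0682) and with no filter on low counts (0.151). It was also lost without any one WT sham library (0.0666 to 0.0735), KO sham replicate 3 (0.0604), WT TAC replicate 3 (0.126) or 5 (0.145), or any one KO TAC library (0.0951 to 0.153). TAC itself gave 0.38 ± 0.17 in WT (adjusted p = 0.288). The value for KO was -0.23 ± 0.17 (adjusted p = 0.357).

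Laptm5, a lysosomal membrane protein of blood cells that limits the surface level of antigen receptors (ENSMUSG00000028581, chr4:130913125-130936141 in GRCm38), had 14.8, 12.0 and 14.2 CPM in WT sham and 17.5, 11.8 and 18 in WT TAC. It had 22.0, 18.4 and 21.6 CPM in KO sham and 22.8, 23.3 and 25.6 in KO TAC. Each KO library was above each WT library, KO sham replicate 1 lay within its group, and the surgeries overlapped in WT. The difference between genotypes was the same size after either surgery, 0.60 ± 0.17 after sham (adjusted p = 0.261) and 0.60 ± 0.17 after TAC (1.52-fold, adjusted p = 0.0347), and Laptm5 was called only after TAC. The interaction was 0.01 ± 0.24 (adjusted p = 0.993). With library totals in place of TMM, which shifted the median of all genes in this comparison to -0.24, Laptm5 after TAC was 0.38 (adjusted p = 0.195). It also missed the threshold with no filter on low counts (0.0656) and when 1 library was left out: replicate 1 (0.053) or 3 (0.0507) of WT sham, replicate 3 (0.113) or 5 (0.0697) of WT TAC, or any of KO TAC (0.0828 to 0.101).

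Lyz2, the lysozyme of myeloid cells, had 117, 98.3 and 103 CPM in WT sham, 120, 118 and 197 in WT TAC, 107, 128 and 135 in KO sham and 116, 106 and 110 in KO TAC. WT TAC replicate 5 was far above all other libraries, and the KO TAC libraries were below the WT TAC libraries by a small margin. The log2 fold change was 0.45 ± 0.20 for TAC in WT (adjusted p = 0.302) and -0.39 ± 0.20 between genotypes after TAC (adjusted p = 0.171). Once both outlying libraries (KO sham replicate 1, WT TAC replicate 1) were left out, the latter was -0.50 and passed (adjusted p = 0.0216). Leaving out WT TAC replicate 5 instead took it to -0.11 (adjusted p = 0.679) and the TAC effect in WT to 0.17 (adjusted p = 0.588). With 12 libraries limma-voom called Lyz2 between genotypes after TAC (-0.44, adjusted p = 0.0427) and in the interaction (-0.70, adjusted p = 0.0179). It called 48.2% and 31.8% of all genes there. Its paralog Lyz1, with which reads could be shared, had only 7 to 25 counts in a library.

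**Figure D3:**
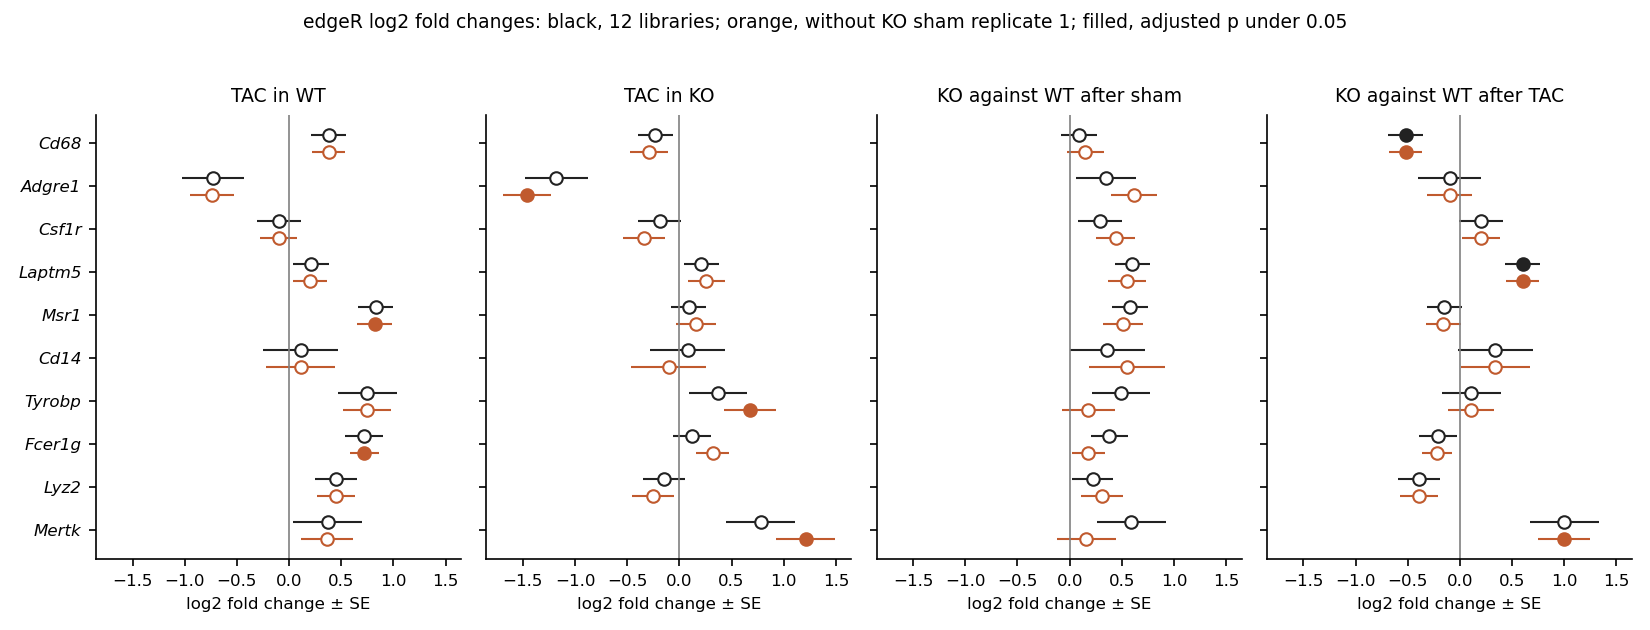
log2 fold change ± SE (x axis) of each member in the 4 comparisons, with 12 libraries in black and without KO sham replicate 1 in orange, filled where the adjusted p in edgeR was under 0.05. After sham every member lies at or right of 0.09, with none filled; after TAC 5 lie on each side of 0, with Laptm5 and Cd68 filled in both fits and Mertk in one.

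Set side by side, the 4 comparisons differed in how the 10 members were spread. TAC in WT gave positive values for 8 of 10 members, with a median of 0.38 where that of all genes was 0.01. The groups did not overlap for 5 members, Cd68, Msr1, Fcer1g and Lyz2 higher and Adgre1 lower, in a comparison in which 27.1% of all genes did not overlap (13.4% higher, 13.7% lower). TAC in KO gave 6 positive values and a median of 0.09 (all genes -0.02), and 2 members did not overlap, Laptm5 higher and Adgre1 lower, against 22.4% of all genes (11.6% higher, 10.8% lower). KO against WT after sham gave positive values for 10 of 10, from 0.09 to 0.60, with a median of 0.37 (all genes 0.01), and Laptm5 and Msr1 did not overlap, against 22.5% of all genes (12.2% higher, 10.4% lower). Medians after sham were also positive for genes of all leukocytes (0.37, 10 of 10 positive), fibroblasts (0.58, 7 of 9) and endothelium (0.35, 8 of 9). They were negative for cardiomyocyte (-0.43, 0 of 11), neutrophil (-0.34, 2 of 4 tested) and erythroid genes (-0.03, 1 of 5 tested). With 11 libraries the members had 0.38, leukocyte genes 0.27, fibroblast genes 0.57, endothelial genes 0.22 and cardiomyocyte genes -0.19. KO against WT after TAC gave 5 positive and 5 negative values and a median of 0.00 (all genes -0.02), and 5 members did not overlap (Laptm5 and Mertk higher, Cd68, Fcer1g and Lyz2 lower), against 46.9% of all genes (22.7% higher, 24.3% lower). Leaving out KO sham replicate 1, 9 members did not overlap for TAC in KO, 5 higher and 4 lower, against 72.9% of all genes (35.9% higher, 37.0% lower), and 6 after sham, all higher, against 36.3% (18.6% higher). These comparisons share groups and are not independent of one another. In the interaction 8 of 10 members were negative, with a median of -0.41 (all genes -0.07).

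In edgeR the interaction called members when both outlying libraries were left out, and in no other edgeR fit that was run. That fit left fewer libraries in WT TAC and KO sham, and called 36.1% of all genes tested, 15.9% higher and 20.2% lower. The 4 of 10 members called were thus near the share of all genes. They were Mertk (1.24, adjusted p = 0.00186), Lyz2 (-0.83, adjusted p = 0.0148), Adgre1 (-0.90, adjusted p = 0.0178) and Cd68 (-0.76, adjusted p = 0.0196). The Lyz2 value rested in part on WT TAC replicate 5, with 197 CPM. Leaving out that library alone, the Lyz2 interaction was -0.32 (adjusted p = 0.778). For Mertk the TAC effect was then the more positive in KO, and for the other 3 the more negative.

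Ratios between members within a library do not depend on the scaling between libraries. The pairs that follow were chosen after the values were seen and are given as a description, per kilobase of exon. The ratio of Msr1 to Adgre1 was 0.141, 0.150 and 0.182 in WT sham, 0.590, 0.553 and 0.324 in WT TAC, 0.360, 0.131 and 0.158 in KO sham and 0.399, 0.539 and 0.407 in KO TAC. It separated TAC from sham libraries in WT, and in KO it did so too, with KO sham replicate 1 close to the TAC libraries. Tyrobp to Adgre1 was 2.69 to 4.11 in WT sham, 6.41 to 14.7 in WT TAC, 2.03 to 9.05 in KO sham (9.05 in replicate 1) and 8.98 to 12.5 in KO TAC. Laptm5 to Cd68 was 0.701 to 0.778 in WT sham and 0.481 to 0.818 in WT TAC, against 0.824 to 1.22 in KO sham and 1.27 to 1.59 in KO TAC, so this ratio separated the genotypes in all 12 libraries. Mertk to Cd68 was 1.1 to 1.77 in KO TAC and 1.24 in the outlying KO sham library, while the remaining 8 libraries had 0.330 to 0.872.

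**Figure D4:**
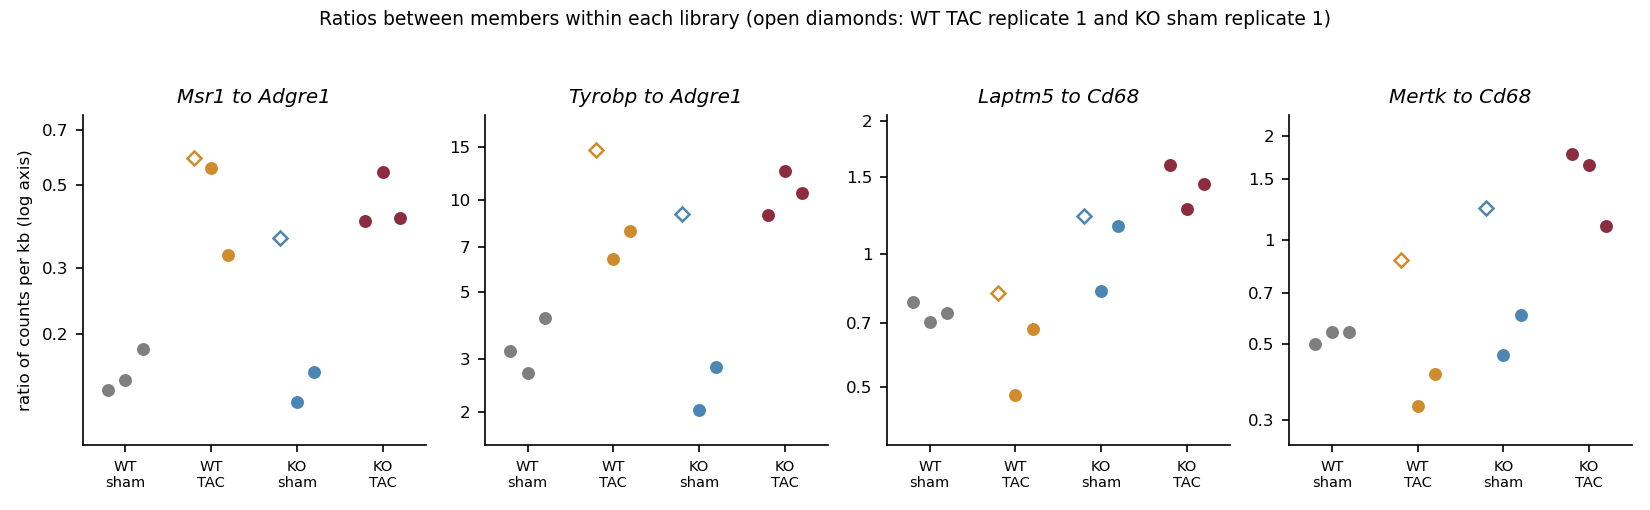
Ratio of counts per kb between pairs of members (log y axis) in each library, by group, with open diamonds for WT TAC replicate 1 and KO sham replicate 1. Msr1 to Adgre1 is 0.131 to 0.182 in the sham libraries other than KO sham replicate 1 and 0.324 to 0.590 in the TAC libraries.

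The members did not vary as one block. Over the 12 libraries, which share their groups and their composition, Pearson's r of log2 CPM between members ran from -0.68 to 0.88 over 45 pairs, with a median of 0.27 and 13 negative pairs. Over the 8 libraries left when KO TAC and the outlying KO sham library were set aside, the median was 0.40, with 9 negative pairs. The genes whose pattern was most like that of the members, by mean r over the 10, were Ms4a6b and C1qb (0.49), C1qc and Fcgr3 (0.48) and Kifc1 and Stil (0.47) over 12 libraries. Over the 8 libraries they were Mrc2 (0.62), C1qc, Ms4a6b and Tpx2 (0.61) and Emp1 and Lfng (0.60). Ms4a6b and C1qc, a chain of complement C1q made by macrophages, were in both sets.

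Of 16 genes for the ligands, regulators and signalling of the Csf1r receptor, 3 were higher and 0 lower in KO than in WT after TAC, with a median of 0.31. In this comparison 8.63% of all genes were called higher and 11.7% lower, and the lists that follow share that background. Dok2, an adaptor that damps signalling by receptor kinases, was higher by 1.06 ± 0.23 (adjusted p = 0.0198), Maf, a transcription factor of mature macrophages, by 1.05 ± 0.32 (adjusted p = 0.0404) and Inpp5d, the phosphatase SHIP1, by 0.73 ± 0.23 (adjusted p = 0.0451). Maf had 43.0 ± 7.55 CPM in KO TAC and 20.8 ± 3.87 in WT TAC (SD, n = 3). None of the 16 was called for TAC in either genotype with 12 libraries. With 11, TAC in KO called 5 higher and 2 lower of 16, a share near the 47.6% of all genes called there, among them the ligand Csf1 (0.60 ± 0.17, adjusted p = 0.0128).

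The partners of the adaptors passed no edgeR test with 12 libraries and did so with 11. Of 18 tested receptors and kinases that use Tyrobp or Fcer1g, 0 were called in any of the 4 comparisons with 12 libraries, although the median for TAC in WT was 0.60. With 11 libraries 4 rose with TAC in WT: the C-type lectins Clec4d (3.36 ± 0.54, adjusted p = 0.0085) and Clec4n (1.65 ± 0.35, adjusted p = 0.0226), the kinase Syk (0.85 ± 0.16, adjusted p = 0.0139) and the lipid receptor Trem2 (1.47 ± 0.29, adjusted p = 0.0196). Trem2 had 1.05 ± 0.350 CPM in WT sham and 2.91 ± 0.803 in WT TAC (SD, n = 3), so these are low levels. All genes called higher in that comparison made up 3.4%. For TAC in KO the same fit called 4 of 18 higher (Syk, Trem2, Vav1 and Lcp2) and 0 lower, where 22.4% of all genes were called higher and 25.2% lower, so the share called higher was near that of all genes. KO sham replicate 1 had a summed 217 CPM of the list, above all other libraries, against 105 and 108 in the rest of its group and 148 to 176 in KO TAC.

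Of 15 genes around Toll-like receptor 4, the partner of Cd14, 3 were higher and 0 lower in KO than in WT after TAC, with a median of 0.06. These were Tnfaip3, an inhibitor of NF-kappaB signalling (1.44 ± 0.21, adjusted p = 0.0108), and the kinases Irak2 (1.32 ± 0.38, adjusted p = 0.0356) and Irak1 (0.51 ± 0.16, adjusted p = 0.0439). Of 21 genes for clearance of dying cells, to which Mertk belongs by function, 3 were higher and 0 lower: the phosphatidylserine receptors Timd4 (1.34 ± 0.27, adjusted p = 0.0176) and Stab1 (1.08 ± 0.30, adjusted p = 0.033), and Pros1 (0.45 ± 0.15, adjusted p = 0.0498), which encodes the Mertk ligand protein S. The median of that list was 0.13. With 11 libraries 3 genes around Toll-like receptor 4 were higher and 1 lower, and 5 genes for clearance were higher and 1 lower. Of all genes 18.5% were called higher and 22.1% lower there. Timd4, a marker of long-resident macrophages, had 1.25 ± 0.425 CPM in WT TAC and 3.20 ± 0.333 in KO TAC (SD, n = 3).

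Of 10 tested scavenger receptors, 2 were higher (Stab1 and Scara3) and 2 lower (Cd36 and Scarb2) in KO than in WT after TAC. Cd36, a fatty acid receptor that heart muscle and endothelium also express, was lower by 1.28 ± 0.26 on the log2 scale, a value of -1.28 (adjusted p = 0.0176). Of 28 lysosomal genes 0 were higher and 7 lower, with a median of -0.33: Ctsd (-1.01 ± 0.19, adjusted p = 0.0165), Ctsb (-0.93 ± 0.25, adjusted p = 0.0294), Ctsl (-0.66 ± 0.19, adjusted p = 0.0369), Lamp1 (-1.02 ± 0.30, adjusted p = 0.0369), Psap, Lgmn and Grn. These encode lysosomal proteases, membrane protein and cofactors that all cell types use. With 11 libraries 3 scavenger receptors were higher and 2 lower, and 1 lysosomal gene was higher and 12 lower, beside 18.5% and 22.1% of all genes. Lower values of Ctsd, Ctsb, Lamp1 and Cd36 stood beside lower cardiomyocyte genes in the same libraries, and the part of those genes in the result was not tested.

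The 10 members summed to 182 to 210 CPM in WT sham, 195 to 308 in WT TAC, 225 to 256 in KO sham and 233 to 237 in KO TAC, and 16 other macrophage markers to 204 to 225, 219 to 344, 263 to 279 and 248 to 266. In both lists WT sham held the lowest library and each KO library was above each WT sham library. Lyz2 alone made up a large part of the members' sum. It had 98.3 to 117 CPM in WT sham, 118 to 197 in WT TAC, 107 to 135 in KO sham and 106 to 116 in KO TAC. The highest sum, 308 CPM in WT TAC replicate 5, was in the library with 197 CPM of Lyz2. Of the 16, 0 were higher and 1 lower (Lgmn) between genotypes after TAC, with a median of -0.18. With 11 libraries Aif1, which encodes the macrophage protein IBA1, was higher in KO (1.08 ± 0.24, adjusted p = 0.00413), and Lgmn and Ms4a7 were lower. Of 10 genes of all leukocytes 0 were called, with a median of 0.07, and Ptprc, the CD45 gene, stood at 0.74 ± 0.25 (adjusted p = 0.0559). With 11 libraries 2 of the 10 were higher in KO, Cytip and Ptprc (0.74 ± 0.23, adjusted p = 0.0242), and 0 lower. Of all genes 18.5% were called higher and 22.1% lower in that fit. The 2 of 10 higher were thus near the share of all genes, and the calls among the 16 below it. Their sum was 58.6 to 70.8 CPM in WT sham, 66.6 to 81.5 in WT TAC, 80.9 to 94.9 in KO sham and 78.3 to 95.6 in KO TAC.

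Markers of some other cell types differed between groups, and those of others differed little. With 12 libraries, KO against WT after TAC called 0 of 4 tested T and NK cell genes and 0 of 5 tested erythroid genes. It called 1 of 9 endothelial genes (higher) and 1 of 8 smooth muscle and pericyte genes (lower). Of fibroblast genes 2 of 9 were called, and of tested B cell genes 2 of 6, all higher. Mast cell and basophil genes, of which Fcer1g serves the IgE receptor, had 5 of 6 tested genes higher in KO than in WT after TAC, with a median of 1.90. The list of 8 summed to 27.4 to 34.2 CPM in KO TAC and 32.8 in the outlying KO sham library. Sums were 14.9 and 15.3 in the rest of KO sham, 5.43 to 18.8 in WT TAC and 10.2 to 13.1 in WT sham. Of 11 cardiomyocyte genes 0 were higher and 6 lower between genotypes after TAC, with a median of -0.75. Of 12 neutrophil genes 8 were under the filter on low counts, with Elane at 0 in all libraries, and the list summed to at most 12.8 CPM in a library. Adipocyte genes had 4 of 5 tested genes higher in KO than in WT after TAC. Their list of 6 summed to 1020 to 1160 CPM in KO TAC and 779 to 1530 in WT TAC, which overlapped. Cfd, the adipocyte protease adipsin, had 13.1 ± 2.07 CPM in KO TAC (SD, n = 3) and at most 0.538 in WT TAC. Of 6 mesothelial genes 1 was higher with 12 libraries and 5 with 11, where 18.5% of all genes were called higher. That list summed to 70.8 CPM in the outlying KO sham library and 7.40 and 16.2 in its group mates, and to 27.2 to 39.7 in KO TAC and 4.78 to 7.67 in WT TAC. The part of these cells, or of the tissue taken with each heart, in the members' differences was not tested.

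**Figure D5:**
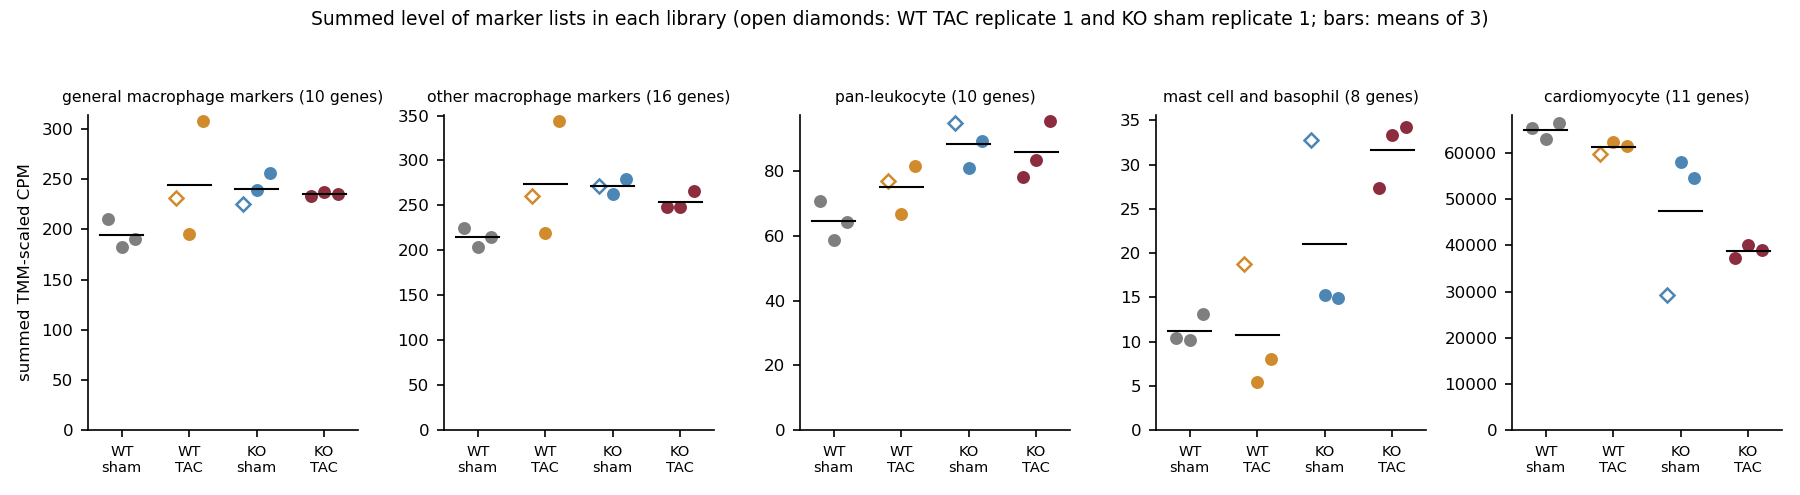
Summed TMM-scaled CPM (y axis, from 0) of 5 marker lists in each library, by group, with a bar at the mean of 3 and open diamonds for WT TAC replicate 1 and KO sham replicate 1. The sum of the 10 members is 233 to 237 in KO TAC and 195 to 308 in WT TAC. Of this, Lyz2 alone has 106 to 116 in KO TAC and 118 to 197 in WT TAC. Cardiomyocyte genes are at 37300 to 40100 in KO TAC and 59800 to 62400 in WT TAC.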

How the data were processed

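Heart mRNA of 12 samples was sequenced as 150 bp pairs. The submitters' processing notes name HISAT2 and give no version for it. Counting program, genome build, annotation and use of strand were not given in the sources used here. As whole-number read counts per gene, not normalized, the values are what the authors deposited, judged by the file's values. Symbols came from GENCODE M21, which matched 52081 of 55357 identifiers; the build may differ from that of the authors.

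Tests used edgeR 4.0.16 (R 4.3.3) with TMM scaling and filterByExpr. A robust quasi-likelihood model with a coefficient per group was fitted to all 12 libraries, which leaves 8 residual degrees of freedom. P-values were adjusted by Benjamini-Hochberg over the 15804 genes tested, with a threshold of 0.05. The fit was run on simulated counts in which all genes had the same dispersion and no library stood apart. That setting is unlike these data, so it does not show how the fit behaves with the outlying libraries. Genes named are the 10 members, up to 4 tested genes of each list with the smallest p in a comparison, and the 6 genes of highest mean r with the members, on log2 CPM with a pseudocount of 0.5. Spi1, Csf1, Aif1, Ms4a7, Ptprc, Cytip, Grn, Psap and Lgmn were named outside this rule, after their values were seen. The members and the pathway and cell type lists were chosen with earlier results of these data known. Alternatives were other scalings, DESeq2 1.42.0, limma-voom (limma 3.58.1), other filters, a block for the replicate number, only the compared groups, and libraries left out. Intervals are SE from edgeR; member counts ran from 42 to 3612 in a library.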

Additional observations from a re-analysis of the deposited data

Results flagged for a closer look

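For 4 members every library of one group lay above, and every library of the other below, the mean of its own reference group, so that an effect had opposite signs in the 2 settings compared. The difference itself was tested as the interaction in edgeR, and none passed with 12 libraries. For Cd68 the WT TAC libraries had 7.08 to 8.82 CPM against a WT sham mean of 6.13, and the KO TAC libraries 4.76 to 6.10 against a KO sham mean of 6.53. Its interaction was -0.61 ± 0.24 (adjusted p = 0.503), and -0.67 (adjusted p = 0.0823) without KO sham replicate 1. For Msr1 the KO sham libraries had 3.49 to 4.23 CPM against a WT sham mean of 2.56, and the KO TAC libraries 3.87 to 4.46 against a WT TAC mean of 4.54, with an interaction of -0.73 ± 0.24 (adjusted p = 0.463, and 0.0971 without that library). For Fcer1g the KO sham libraries had 6.12 to 9.83 CPM against 5.93 in WT sham, and the KO TAC libraries 8.06 to 8.76 against 9.75 in WT TAC, with an interaction of -0.59 ± 0.26 (adjusted p = 0.537, and 0.233 without that library).

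Lyz2 had opposite signs under both contrasts. The WT TAC libraries had 118 to 197 CPM against a WT sham mean of 106, and the KO TAC libraries 106 to 116 against a KO sham mean of 123. The KO sham libraries, at 107 to 135, lay above the WT sham mean, and the KO TAC libraries lay below the WT TAC mean of 145. Its interaction was -0.61 ± 0.29 (adjusted p = 0.553), and -0.70 (adjusted p = 0.103) without KO sham replicate 1.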

How the results depend on the processing

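Of 1140 member values recomputed over 23 alternatives, 1036 kept their direction and side of the threshold, 42 newly passed, 22 no longer passed and 40 changed sign, the last in 15 results whose size was at most 0.38 on the log2 scale with 12 libraries. The number of members called moved most. For TAC in WT it was 0, and 2 (Fcer1g and Msr1) with DESeq2, with limma-voom and without both outlying libraries (0 to 2 with 1 library left out). For TAC in KO it was 0, 1 (Adgre1) with DESeq2 or no filter on low counts, 4 with limma-voom and 3 without both (0 to 3). Between genotypes after sham it was 0, and 4 with limma-voom (Adgre1, Csf1r, Laptm5 and Msr1). After TAC it was 2, 1 with DESeq2 size factors or library totals, 0 with no filter, 4 with limma-voom and 4 without both (0 to 3). For the interaction it was 0, 4 with limma-voom (Cd68, Lyz2, Mertk and Msr1) and 4 without both. Genes called over the whole table moved as well: DESeq2 called 507, 1783, 207, 4770 and 95 in these 5 comparisons, and limma-voom 1074, 9951, 2358, 7615 and 5030. For limma-voom these were 6.8%, 63.0%, 14.9%, 48.2% and 31.8% of all genes. Without both outlying libraries edgeR called 6.18%, 55.5%, 1.84%, 53.8% and 36.1%. The 3 and 4 members called there for TAC in KO and between genotypes after TAC were thus below the share of all genes. The 4 called there in the interaction were near it. With no filter the shares were 0.427%, 2.14%, 0.249%, 8.88% and 0.134%. After TAC, DESeq2 size factors called 3161 genes and library totals 3525.

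Same-numbered libraries did not vary together (r from -0.194 to 0.06), so no pairing by number was seen. With 3 libraries a group and the outlying libraries among them, this check cannot exclude a pairing. With a replicate block 2 members were called between genotypes after TAC, Laptm5 and Mertk (1.06, adjusted p = 0.0464 in edgeR), and Cd68 was not (-0.52, adjusted p = 0.0711). The replicate block turned Cd14 to -0.21 for TAC in WT and -0.33 for TAC in KO.

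The cause of the other sign changes was not tested. With library totals Csf1r was 0.06 for TAC in WT and -0.02 between genotypes after TAC, Tyrobp -0.12 in the latter, Msr1 and Cd14 -0.08 and Fcer1g -0.04 for TAC in KO, and Laptm5 -0.32 in the interaction. The Laptm5 interaction was -0.04 with no filter and -0.00331 with mitochondrial transcripts taken out. With limma-voom Cd14 was -0.44 for TAC in KO and Tyrobp 0.02 in the interaction. Over fits that left out libraries, TAC in WT gave -0.25 to 0.11 for Csf1r, -0.07 to 0.30 for Cd14 and -0.04 (without WT TAC replicate 1) to 0.60 for Mertk, and TAC in KO gave -0.41 to 0.39 for Cd14. Between genotypes after sham Cd68 was -0.02 to 0.17. After TAC Adgre1 was -0.26 to 0.18, Csf1r -0.02 to 0.35, Cd14 -0.17 to 0.65 and Tyrobp -0.14 to 0.27. In the interaction Csf1r was -0.31 to 0.05, Laptm5 -0.17 to 0.13, Cd14 -0.52 to 0.28 and Tyrobp -0.63 to 0.08. Msr1 and Cd14 had the fewest counts, but few counts did not always go with a large SE. For TAC in WT the SE was 0.17 for Msr1, 0.36 for Cd14 and 0.33 for Mertk. The 3 libraries a group limit every comparison.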

Other observations

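Monocyte and dendritic cell genes, not described above, also differed between genotypes after TAC, where 20.4% of all genes tested were called. Ccr2, the chemokine receptor of monocytes that enter from blood, had 3.49 to 13.8 CPM in WT TAC and 1.59 to 2.88 in KO TAC. It was lower in KO by edgeR, with a log2 fold change of -1.67 ± 0.50 (adjusted p = 0.040). The KO sham libraries, at 1.55 to 3.53, also lay below the WT sham libraries, at 4.08 to 6.99. Nr4a1, a transcription factor of patrolling monocytes that many other cells induce, was higher by 2.84 ± 0.91 (adjusted p = 0.0471), with 27.6 to 266 CPM in KO TAC against 14.4 to 18 in WT TAC. Of 5 tested dendritic cell genes 2 were higher in KO, Zbtb46 (0.89 ± 0.28, adjusted p = 0.0434) and Batf3 (1.43 ± 0.47, adjusted p = 0.0486), of which Zbtb46 is also made by endothelial cells. In the mast cell list the protease Mcpt4 had 0.538 ± 0.187 CPM in WT TAC and 4.05 ± 0.766 in KO TAC (SD, n = 3), a difference of 2.89 ± 0.45 (adjusted p = 0.0116 in edgeR).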
